A study of Mus musculus with 10 samples.

Results

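The genes described here are 10 components of the Notch pathway and of the secretory fate switch that it controls: the ligand genes Dll1, Dll4 and Jag1, the receptor genes Notch1 and Notch2, the Hes genes Hes1, Hes5 and Hes6, and the transcription factor genes Atoh1 and Gfi1. They were taken by gene name from the scanner files, where they have 15 of the 41174 gene probes of the array and are 10 of its 28034 gene names. Expression in mouse small intestine was measured 1 day after the loss of the R-spondin receptors Lgr4 and Lgr5, or of R-spondin itself, on 10 Agilent 2-colour arrays. The first comparison set crypts of Lgr4fl/fl Lgr5 fl/fl mice, deleted through a Cre that the labels call P450Cre and the series description calls AhCre, against wt control crypts whose treatment the labels do not give. Deleted and wt crypt RNA shared each array, and each of 2 biological replicates was run with both dye orientations. The second set 2 organoid cultures from VillinCre_Lgr4fl/fl-Lgr5fl/fl mice, labelled as day 1 after deletion, against 2 organoid cultures from VillinCre_wt mice, labelled as having had tamoxifen for 1 day. The third set 1 organoid culture kept for 1 day after splitting in EGF and Noggin without R-spondin (EN) against 1 culture with EGF, Noggin and R-spondin (ENR). Organoids are miniature epithelia grown from crypts, and their Cy5-labelled RNA was hybridised with Stratagene mouse reference RNA in the Cy3 channel. Villin drives Cre in the epithelium, the P450 promoter is switched on by xenobiotic compounds, and the labels do not say how many animals gave each crypt replicate or whether the organoid cultures came from separate animals. All p-values therefore measure the spread between these samples, which may be partly technical.

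Notch signals between touching cells. A ligand of the Delta or Jagged family on one cell makes the Notch receptor on its neighbour release its intracellular domain, which enters the nucleus, joins the DNA-binding protein RBPJ and switches on Hes genes. Hes1 represses Atoh1, so intestinal cells that receive the signal stay progenitors or become enterocytes, while cells that escape it express Atoh1 and become goblet, Paneth, enteroendocrine or tuft cells. Gfi1 acts below Atoh1 in goblet and Paneth cells, and Dll1 and Dll4 are the ligands that secretory cells present to their neighbours.

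The fate switch rests here on a single probe for Hes1 and a single probe for Atoh1, and on Notch2 and Hes6 probes that disagreed with a second probe of the same gene. Those that lie in coding sequence are shown, since a probe near the 3′ end and a probe in the coding part need not report the same transcripts. Coordinates are those of mm9 in the scanner files, each probe is 60 bases long and written 5′ to 3′ on the strand of its gene, and no base is marked.
Hes1 probe, chr16:30065983-30066278, plus strand, spanning 296 bases because it crosses an intron: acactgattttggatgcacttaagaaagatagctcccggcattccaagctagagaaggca
Atoh1 probe, chr6:64679913-64679972, plus strand: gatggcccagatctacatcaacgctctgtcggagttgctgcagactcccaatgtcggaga
Notch2 coding probe, chr3:97951205-97951264, plus strand: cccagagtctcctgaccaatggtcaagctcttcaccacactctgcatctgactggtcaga
Hes6 coding probe, chr1:93309308-93309367, minus strand: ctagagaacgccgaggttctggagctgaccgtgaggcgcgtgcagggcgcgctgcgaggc
The Hes1 probe reads the part that encodes the DNA-binding domain, and the Notch2 coding probe lies near the end of the coding sequence. The brighter Notch2 probe is further downstream, at chr3:97953914-97953973, and the brighter Hes6 probe at chr1:93308264-93308323.

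The promoter of Hes5 is shown because Hes5 had the largest difference of the 10 genes without R-spondin. Promoters of 300 bases, 250 before to 50 after the start site, were taken from RefSeq for GRCm38.p6, where 9 of the 10 genes had 12 promoters; none was found for Hes1. In chr4:154960673-154960972 on the plus strand, the capitals mark the RBPJ motif GTGGGAA, on either strand.
Hes5 promoter: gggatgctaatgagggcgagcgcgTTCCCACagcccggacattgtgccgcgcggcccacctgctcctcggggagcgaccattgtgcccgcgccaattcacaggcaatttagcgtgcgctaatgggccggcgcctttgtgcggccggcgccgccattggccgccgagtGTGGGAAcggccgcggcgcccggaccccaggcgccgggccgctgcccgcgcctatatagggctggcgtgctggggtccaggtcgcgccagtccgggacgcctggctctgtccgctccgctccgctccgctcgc
The matches begin at -226 and -83 relative to the start site, the first on the minus strand. GTGGGAA occurred in 1 of the 12 promoters of these genes, that of Hes5, and in 6.38% of 32851 promoters of the same length, and 0.256% of those promoters held 2 or more. The shorter RBPJ core TGGGAA, which lies within GTGGGAA, was also found in Hes5 alone among the 12, and in 25.6% of all promoters. The Hes-binding motif CACNAG was in 6 of the 12 promoters, those of Atoh1, Dll1, Dll4, Hes6, Notch1 and Notch2, against 42.5% of all. The Wnt effector motif CTTTGAT was in that of Atoh1 alone, against 3.73% of all, and the E box CAGCTG was in 4, of Dll1, Hes6 and Jag1, against 16.3% of all. All motifs were searched on both strands, and a match is only a run of letters.

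The deletion was visible in both systems. Lgr4 differed by -1.56 in deleted against wt crypts (log2, SE 0.22, limma adjusted p 0.0893) and Lgr5 by -1.68 (SE 0.23, adjusted p 0.0885). Lgr4 differed by -3.60 in deleted against wt organoids by Cy5 (SE 0.37, adjusted p 0.0758), Lgr5 was not well above background in deleted organoids, and without R-spondin the Lgr5 Cy5 signal was at least 62.0-fold lower than with it, a bound taken at its own signal without R-spondin, which was not well above background. These Lgr4 values are those of its brightest probe. Another Lgr4 probe gave -0.96 and -1.15 in crypt replicates 1 and 2 and -3.52 in organoids by Cy5. A further, dimmer one went the other way, at 0.21 and 1.09 in crypts and 0.14 in organoids. The remaining Lgr4 probe was not above background in any sample. Differences are log2 values throughout, and signals are background-corrected, normalized brightness. The crypt arrays differed in quality: over 14236 probes the dye-swapped arrays correlated at 0.92 in replicate 2 and at 0.35 in replicate 1, and arrays of different replicates at 0.34 to 0.40. In replicate 2, 7.68% of genes had a log2 ratio under -1, against 0.862% in replicate 1. On the 4 organoid deletion arrays the negative controls were brighter than gene spots in the Cy3 reference channel, and 3.66% to 4.26% of gene spots were called above background there, so Cy5 alone is the main measure for that comparison and the ratio is given where its sign differs.

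In deleted crypts Notch1, Notch2 by its brightest probe, the ligand Dll1 and the receptor target Hes1 had lower signals than in wt crypts in both replicates. Atoh1 showed no detectable difference. Of the 10 genes 5 were below 0 on all 4 arrays, namely Dll1, Notch1, Notch2, Hes1 and Hes5, and none was above 0 on all 4; over the 10676 genes with 4 values, 17.4% were below and 16.2% above 0 throughout. Of the 10, 8 had a mean below 0, against 52.5% of 12206 genes, and the median log2 ratio of the 10 was -0.46, against -0.02 for all genes. Hes5 and Dll4 passed the filter on dim probes only through wt crypts, where their means were higher. Their place in these counts is therefore not independent of the filter. By limma, 0 of the 10 passed an adjusted p of 0.05, where 0 of 12206 genes were called lower and 6 (0.0492%) higher. With an unadjusted p below 0.05, 4 of the 10 were lower, Dll1, Notch1, Notch2 and Hes1, against 7.3% of all genes, and 0 were higher, against 6.44%. With the scanner software's processed signals the calls over all genes were 338 lower and 451 higher, and with median centring 55 lower and 279 higher.

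**Figure D1:**
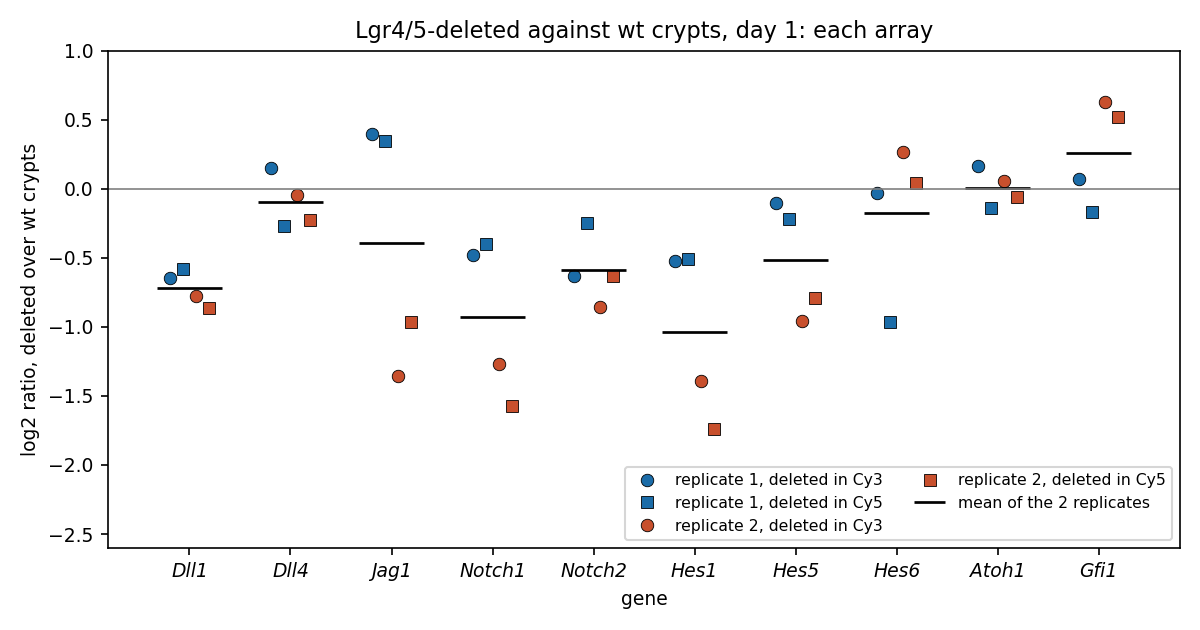
Log2 ratio of deleted over wt crypts (vertical axis) for each of the 10 genes, with 1 point per array, circles for deleted RNA in Cy3, squares for deleted RNA in Cy5, blue for replicate 1, orange for replicate 2, and a bar for the mean of the replicates. Dll1, Notch1, Notch2, Hes1 and Hes5 lie below 0 on all 4 arrays, Jag1 lies above 0 in replicate 1 and below it in replicate 2, and Atoh1 lies between -0.14 and 0.16.

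Among the ligands, Dll1 was below 0 on every array. Its normalized signal on the arrays of replicate 1 was 1950 and 1875 in deleted crypts and 3056 and 2804 in wt crypts, and in replicate 2 it was 1585 and 1645 in deleted crypts and 2712 and 2999 in wt crypts. The arrays of a dye swap share their RNA, so these signals come from 2 replicates. The mean log2 ratio of Dll1 was -0.72 (SE 0.22, n = 2, limma adjusted p 0.283), 0.608 of the wt level. This probe was printed 10 times on each array, and the SD of the log2 ratio among the usable copies on an array was 0.05 to 0.29. Jag1, a ligand of the Jagged family, split by replicate: its signal was 818 and 953 in deleted crypts against 621 and 751 in wt crypts of replicate 1, and 374 and 428 in deleted crypts against 956 and 836 in wt crypts of replicate 2. The 2 replicates pointed in opposite directions, and the mean of -0.39 (SE 0.38, limma adjusted p 0.670) was no larger than the spread between them. A second Jag1 probe, in the coding sequence, was not well above background on any of the 10 arrays in the channel of the sample. Dll4, the other Delta ligand of secretory cells, was dim, at 185 to 314 in deleted crypts and 195 to 282 in wt crypts, and above background on 3 of 4 deleted channels. Its log2 ratio was -0.10 (SE 0.22, limma adjusted p 0.869).

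Both receptors had lower means in deleted crypts. Notch1, the main Notch receptor of the crypt together with Notch2, had signals of 230, 261, 140 and 116 in deleted crypts against 320, 345, 338 and 346 in wt crypts, in the order of replicate 1 with deleted RNA in Cy3 and in Cy5, then replicate 2. The replicate 2 pair lay furthest apart. The log2 ratio of Notch1 was -0.93 (SE 0.30, limma adjusted p 0.291), from -0.48 and -0.40 in replicate 1 and -1.27 and -1.57 in replicate 2. A second Notch1 probe gave -0.98 and -0.97 in replicate 2, and was not above background in the deleted channels of replicate 1. With the processed signals Notch1 was -1.32 (adjusted p 0.00283), with the series matrix -1.42 (adjusted p 0.0312) and with median centring -0.90 (adjusted p 0.295). It was -1.42 without replicate 1 (adjusted p 0.0330) and -0.44 without replicate 2 (adjusted p 0.742); in these fits the lone replicate is assumed to vary like the organoid cultures, which give the spread. Notch2 had signals of 409, 414, 353 and 381 in deleted crypts and 632, 490, 639 and 591 in wt crypts. Its log2 ratio was -0.59 (SE 0.23, limma adjusted p 0.346). The Notch2 probe in the coding sequence was dimmer, at 109 to 119 in deleted crypts and at most 121 in wt crypts. It was above background on the arrays of replicate 2 only, where its log2 ratios were -0.08 and -0.14. Those of the brightest probe were -0.86 and -0.63 there. The signals of the coding probe overlapped between the groups. The remaining Notch2 probe was above background in 1 wt crypt channel and in no other crypt or organoid sample, so no ratio of it is given.

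Hes1, the repressor of Atoh1, had the largest mean difference of the 10 genes in crypts as processed here, and Notch1 had it with the processed signals, the series matrix and median centring. The Hes1 signal was 980 and 936 in deleted crypts against 1405 and 1333 in wt crypts of replicate 1, and 495 and 408 in deleted crypts against 1298 and 1360 in wt crypts of replicate 2. The wt levels were alike in the replicates and the deleted levels were not, with replicate 2 lower. The log2 ratio of Hes1 was -1.04 (SE 0.31, limma adjusted p 0.271), with a 95% confidence interval of -1.79 to -0.29. With the processed signals it was -1.04 with an adjusted p of 0.0359; with median centring, no filter and the series matrix the adjusted p was 0.299, 0.518 and 0.101. It was -1.56 without replicate 1 (adjusted p 0.0229) and -0.52 without replicate 2 (adjusted p 0.654), on the same assumption as for Notch1. Replicate 2 is also the replicate in which 7.68% of all genes were under -1, and the part of that in the Hes1, Notch1 and Jag1 values was not tested. Stromal and muscle markers were below 0 for 4 of 4 measured, with a median of -0.93. Among them Col1a2, Col3a1 and Dcn passed the filter on dim probes only through wt crypts. This count and median are therefore not independent of the filter. The median of the 4 was lower on both arrays of replicate 2 (-1.28 and -1.31) than of replicate 1 (-0.40 and -0.60). The summed signal of all 10 listed was 4553 to 6465 in deleted crypts and 5985 to 6631 in wt crypts, Lum, Des and Myh11 were above background on all arrays of neither group, and the part of these cells in the Notch1 and Hes1 values was not tested. Hes5, another RBPJ target, was dim: its signal was 156, 211, 124 and 130 in deleted crypts and 168, 245, 241 and 225 in wt crypts. It was above background in 3 of the 4 deleted channels, and its log2 ratio was -0.52 (SE 0.26, limma adjusted p 0.430), mostly from replicate 2. Hes6, a Hes family member that opposes Hes1 and is found in cells leaving the progenitor state, had signals of 5314 to 9024 in deleted crypts and 7505 to 10369 in wt crypts. These overlapped, and the log2 ratio was -0.17 (SE 0.25, limma adjusted p 0.793); the coding probe of Hes6 gave -0.52, 0.09, 0.60 and 0.32 on the 4 arrays.

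The repressed target Atoh1 had overlapping groups. Its signal was 333, 302, 344 and 286 in deleted crypts and 297, 333, 332 and 298 in wt crypts. The log2 ratio was 0.01 (SE 0.22, limma adjusted p 0.993), with a 95% confidence interval of -0.53 to 0.54. A change of Atoh1 by up to about that size in either direction would not have been told from none. Gfi1 had signals of 727 and 573 in deleted crypts against 692 and 644 in wt crypts of replicate 1, and 1010 and 935 in deleted crypts against 655 and 652 in wt crypts of replicate 2. It was higher in replicate 2 only, and its log2 ratio of 0.26 (SE 0.25, limma adjusted p 0.667) was within the spread between replicates. Gfi1 is also expressed by lymphocytes, and immune cell markers had higher signals in deleted crypts: 9 of 9 measured markers were above 0, with a median of 1.72, and the summed signal of the list was 33418 and 66378 in deleted crypts and 9946 and 10955 in wt crypts. Cd68 and Itgax were above background on all arrays of neither group, and the part of these cells in the Gfi1 value was not tested. In these bulk samples fewer cells of a type and less RNA per cell cannot be told apart.

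In deleted organoids Dll1, Notch2 and Hes1 again had lower signals than in wt organoids, and the other genes with 4 values overlapped between the groups. Of the 8 that could be tested by Cy5, 7 had a lower mean in deleted than in wt cultures, with a median of -0.28, against 47.5% of 13311 genes and a median of 0.02. By limma 0 of the 8 passed an adjusted p of 0.05, where 1 gene was called lower (0.00751%) and 4 higher (0.0301%); scaled to the 75th percentile the calls were 5 lower and 5 higher, and with the processed signals 57 lower and 73 higher. With an unadjusted p below 0.05, 1 of the 8, Dll1, was lower, against 4.25% of all genes, and 0 were higher, against 3.46%. Both deleted cultures lay below both wt cultures for 3 of the 8, Dll1, Notch2 and Hes1, against 18.5% of all genes. Each slide held 1 deleted and 1 wt culture. With the slide as a replicate block, 229 genes were called lower (1.72%) and 182 higher (1.37%), with 0 of the 8 among them, and 3 of the 8, Dll1, Notch2 and Gfi1, were lower at an unadjusted p below 0.05, against 9.26% of all genes. Within both slides 6 of the 8 were below 0, Dll1, Dll4, Notch2, Hes1, Hes6 and Gfi1, against 30.2% of all genes. By ratio to the Cy3 reference 2 of the 8 were below 0, against 45.5% of 12883 genes, with a median of 0.17, so the measures differed in direction.

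**Figure D2:**
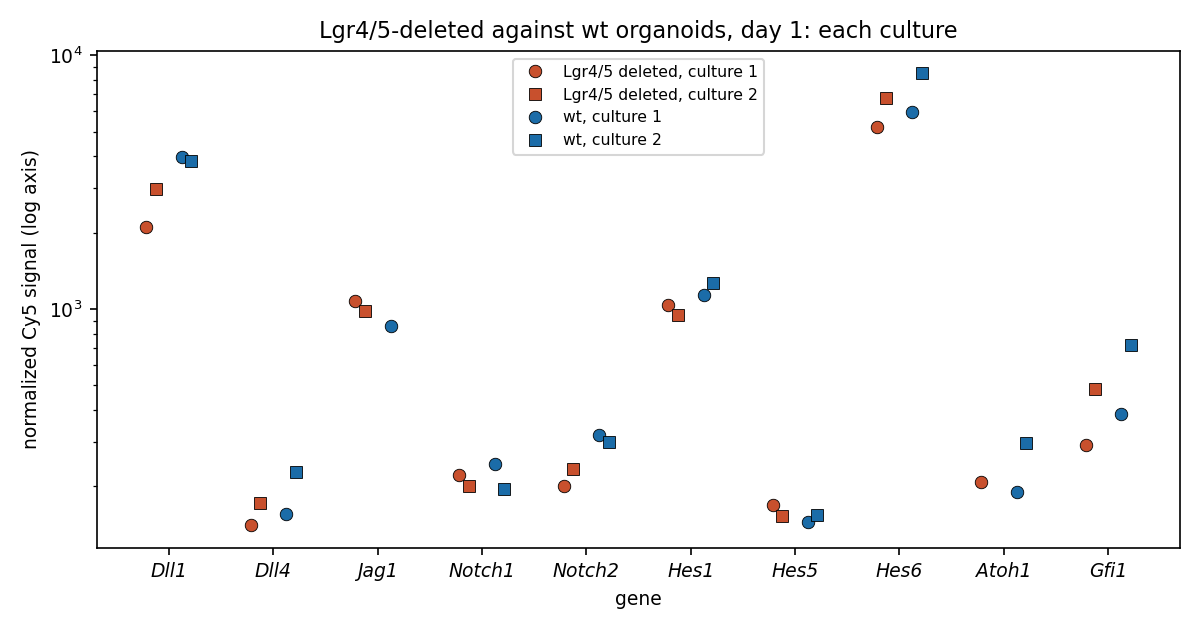
Normalized Cy5 signal (vertical log axis) of the 10 genes in Lgr4/5-deleted organoid cultures (orange) and wt organoid cultures (blue), with 1 point per culture. Dll1, Notch2 and Hes1 have both deleted points below both wt points, and Jag1 and Atoh1 have 3 points because 1 spot was marked as an outlier.

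Dll1 had Cy5 signals of 2104 and 2975 in deleted cultures and 3970 and 3828 in wt cultures. The groups did not overlap, and the log2 difference was -0.64 (SE 0.26, limma adjusted p 0.627), close to the -0.72 seen in crypts. Within the slides the difference was -0.92 and -0.36, and with the slide as a replicate block the adjusted p was 0.148. By ratio Dll1 was higher in deleted cultures, at 0.63 (limma unadjusted p 0.0444, adjusted p 0.963). The 2 measures thus passed the unadjusted level of 0.05 in opposite directions. Notch2 had 200 and 233 in deleted cultures and 320 and 298 in wt cultures. Its log2 difference was -0.51 (SE 0.23, limma adjusted p 0.668), with -0.67 and -0.35 within the slides and 0.17 by ratio. The Notch2 coding probe was above background in both deleted and neither wt culture, with a log2 difference of -0.03. Hes1 had 1036 and 943 in deleted cultures and 1132 and 1264 in wt cultures. That is a log2 difference of -0.28 (SE 0.22, limma adjusted p 0.868; 0.36 by ratio).

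Notch1 had 222 and 200 in deleted cultures and 245 and 196 in wt cultures, with a log2 difference of -0.05 (SE 0.24, limma adjusted p 0.996), and its second probe gave -0.04. Hes5 had 169 and 152 in deleted cultures and 145 and 154 in wt cultures, and Dll4 had 141 and 173 in deleted cultures and 155 and 229 in wt cultures. Hes6 had 5228 and 6796 in deleted cultures and 5972 and 8480 in wt cultures, and its coding probe gave -0.08. Gfi1 had 291 and 482 in deleted cultures and 384 and 724 in wt cultures, with a log2 difference of -0.49 (SE 0.39, limma adjusted p 0.865; 0.23 by ratio). For Gfi1 the spread between the slides, with the second culture higher in both groups, exceeded the difference. Within the slides Gfi1 differed by -0.40 and -0.59, and with the slide as a replicate block its adjusted p was 0.200.

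Atoh1 could not be tested in organoids, because the spot of deleted culture 2 was marked as an outlier by the scanner software. Its signal was 207 in deleted culture 1, and 190 and 297 in the wt cultures. With marked spots kept, and all signals rescaled by that choice, Atoh1 had 282 and 377 in deleted cultures and 262 and 386 in wt cultures. The groups then overlapped, with a log2 difference of 0.04 (SE 0.28, limma adjusted p 0.997) and a 95% confidence interval of -0.65 to 0.73. Jag1 likewise lacked wt culture 2, with 1072 and 985 in deleted cultures and 855 in wt culture 1. With the marked spot kept it was 0.51 higher in deleted cultures (SE 0.25, limma adjusted p 0.715).

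The crypt and organoid effects of the deletion were compared directly by limma over 11376 genes measured in both, of which 13 differed (0.114%) at an adjusted p of 0.05 and 5.95% at an unadjusted p under 0.05. None of the 8 genes differed at either level. The crypt minus organoid difference was -0.88 for Notch1 (SE 0.43, unadjusted p 0.0734, adjusted p 0.875), -0.76 for Hes1 (SE 0.44, adjusted p 0.892), -0.62 for Hes5 (SE 0.37) and 0.76 for Gfi1 (SE 0.49). It was -0.08 for Dll1 (SE 0.34) and -0.08 for Notch2 (SE 0.33).

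Without R-spondin Hes1, Hes5, Hes6 and the receptors were lower than with R-spondin, and Dll1, Atoh1 and Gfi1 were near their level with it. Only 1 culture of each kind was measured, so these values have no replicate check and no test, and a gene was counted where its log2 ratio was past 1 in size. Of the 10 genes 2, Hes5 and Notch2, were under -1, against 6.49% of 17165 genes, and 0 were over 1, against 4.42%. By Cy5 alone 3 were under -1, with Hes6, against 6.73% of 17621 genes, and 0 over 1, against 5.24%. Of the 10, 7 were below 0 by ratio, against 42.6% of all genes, and their median was -0.51, against 0.07.

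**Figure D3:**
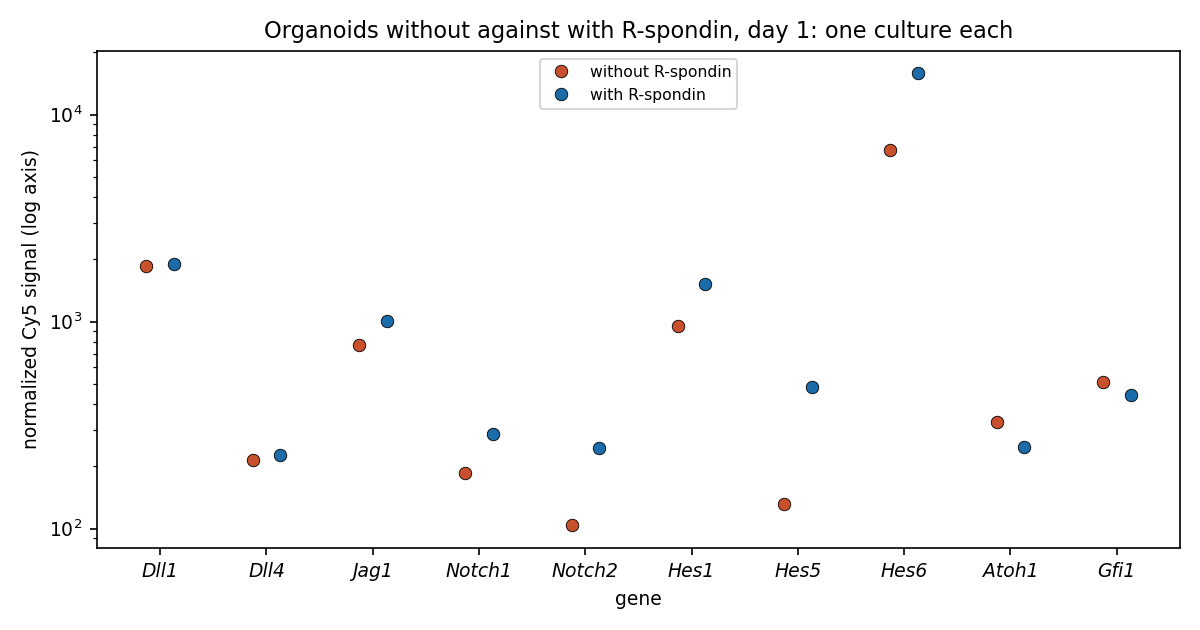
Normalized Cy5 signal (vertical log axis) of the 10 genes in the organoid culture without R-spondin (orange) and the culture with R-spondin (blue), with 1 point per culture. Hes5, Notch2 and Hes6 have the widest gaps, with the point without R-spondin lower.

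Hes5 had a Cy5 signal of 131 without and 481 with R-spondin, a log2 ratio of -2.07 (-1.87 by Cy5). Among all genes it ranked 223 from the lowest. On a scale where the sample channels of all arrays were normalized together, the Hes5 signal with R-spondin was 523, and every other group lay between 135 and 205. Wt organoids of the deletion experiment were at 156 and 165, and experiment and condition cannot be told apart there. The Hes5 promoter holds the RBPJ motif in 2 places, and the part of the motif in this difference was not tested. Hes1 had 946 without and 1516 with R-spondin, a log2 ratio of -0.62. Hes6 had 6763 without and 15811 with R-spondin, a log2 ratio of -0.76 (-1.23 by Cy5), and its coding probe gave -0.32 (-0.50 by Cy5). Hes1, Hes5 and Hes6 were thus lower in the culture without R-spondin by both measures.

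Notch2 had 104 without and 244 with R-spondin, a log2 ratio of -1.30. The Notch2 coding probe gave 0.19, so this value rests on the probe furthest downstream. Notch2 was -0.55 with the mean over probes, and so not under -1, -2.07 in the series matrix and -2.01 with the processed signals. Notch1 had 185 without and 286 with R-spondin, a log2 ratio of -0.75, and its second probe gave -0.78. Jag1 had 774 without and 1004 with R-spondin, a log2 ratio of -0.40. Dll4 had 214 without and 226 with R-spondin (-0.26), and Dll1 had 1849 without and 1897 with R-spondin (0.02, and -0.04 by Cy5). Dll1 was thus level here, whereas its mean was lower after deletion in crypts and organoids; this difference was not tested. Atoh1 had 327.5 without and 248 with R-spondin, a log2 ratio of 0.32 (0.40 by Cy5, -0.02 in the series matrix), and Gfi1 had 512 without and 441 with R-spondin, a log2 ratio of 0.21.

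Set side by side, no member was lower by a log2 of 1 in all 3 comparisons. Hes1 gave -1.04 in crypts, -0.28 in organoids after deletion and -0.62 without R-spondin, and Notch1 gave -0.93, -0.05 and -0.75 in that order. Notch2 gave -0.59, -0.51 and -1.30, and Hes5 gave -0.52, 0.10 and -2.07. Dll1 gave -0.72, -0.64 and 0.02. Atoh1 gave 0.01 in crypts and 0.32 without R-spondin. No organoid culture is shared between the deletion and the R-spondin experiments.

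Levels were also ranked across the separate experiments, with the sample channels of all arrays normalized together. Crypt levels averaged both dyes, organoid levels were Cy5 alone, and only the organoid deletion files gave median pixel signals. Between experiments, group and experiment therefore cannot be told apart. By level Dll1 was highest in wt organoids of the deletion experiment, at 4295 and 4136. Deleted organoids at 2286 and 3226 and wt crypts at 2847 and 2670 followed, and these overlapped. The cultures of the R-spondin experiment, at 2009 without and 2063 with R-spondin, and deleted crypts, at 1685 and 1630, were lowest. Notch2 was highest in wt crypts, at 549 and 561, then in deleted crypts at 369 and 376, wt organoids at 347 and 324, the culture with R-spondin at 264, and deleted organoids at 216 and 253; it was lowest without R-spondin, at 111. Hes1 was highest with R-spondin, at 1650, and lowest in deleted crypts, at 855 and 473. Its levels in wt organoids (1230 and 1375) and wt crypts (1344 and 1215) overlapped, and those without R-spondin (1030) and in deleted organoids (1126 and 1026) overlapped too. Atoh1 lay between 204 and 356 in all groups. The highest value was that without R-spondin, at 356, and the next was wt organoid culture 2, at 322. Each R-spondin culture and the deleted organoids had 1 Atoh1 value, so no spread is known for them.

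The genes whose pattern was most like that of Hes1 over the 4 crypt arrays, the 2 organoid slides and the R-spondin pair were Rsbn1, Sp1, Rabggtb, Taf7 and the transcript CK787377, with Pearson correlations of 0.985 to 0.991 among 9649 genes measured in all 7 values. The arrays of a dye swap share their RNA, and these genes, like Hes1, were lowest on the arrays of crypt replicate 2: Sp1 was at -1.61 and -1.80 there, and at -0.12 and 0.10 in replicate 1. Atoh1 lacks 1 organoid value and was not ranked.

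Of 44 other genes of the pathway, 29 were measured in crypts, 32 in organoids after deletion and 39 in the R-spondin experiment. In crypts 17 of the 29 were below 0, with a median of -0.12, and none passed the adjusted p in limma. At an unadjusted p below 0.05, Itch, which encodes a ubiquitin ligase, was the 1 gene that was lower, at -0.68, and 2 were higher. These were Dtx1, which encodes a Deltex ubiquitin ligase, at 1.98 (SE 0.36, limma adjusted p 0.160), and Hes2 at 0.60. Psenen, which encodes a gamma-secretase subunit, was at -0.72, Pofut1, which encodes a Notch fucosyltransferase, at -0.47 and Aph1a at 0.72. These means came mostly from replicate 2. In replicates 1 and 2 Psenen was at -0.12 and -1.31, Pofut1 at -0.11 and -0.83 and Aph1a at 0.09 and 1.35. Itch was at -1.07 and 0.52 on the arrays of replicate 1. Dtx1 was at 1.31, 1.23, 2.87 and 2.50 on the 4 crypt arrays and was above background in at most 1 of the deleted organoid cultures; the immune markers were higher on the same arrays, and their part in Dtx1 was not tested. In organoids after deletion 17 of the 32 were below 0 by Cy5, with a median of -0.02 (0.09 by ratio). The extremes were Mib1 at -0.54, Lfng at -0.41 and Dll3 at -0.29, and Neurl1b at 0.69, Hes2 at 0.46 and Aph1b at 0.33, none of which passed. Lfng and Dll3 were dim and passed the filter on dim probes only through wt organoids. Their place among the extremes is therefore not independent of the filter.

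Without R-spondin 16 of the 39 other pathway genes were below 0 by ratio, with a median of 0.06, and 4 were under -1. Jag2, a further ligand gene, had a Cy5 signal of 126 without and 383 with R-spondin, a log2 ratio of -1.88. Nrarp, a Notch target that dampens the pathway, had 261 without and 550 with R-spondin, a log2 ratio of -1.23. Notch3 had 142 without and 316 with R-spondin (-1.07), and Lfng, which encodes a glycosyltransferase acting on Notch, was at -1.01. Aph1a at 0.63 and Neurl1b at 0.54 were among the highest by ratio. By Cy5 3 were under -1 and 1 over 1: this was Hes2, with 844 without and 325 with R-spondin (1.37), while another Hes2 probe, the one used for the ratio, gave 0.33. The same 4 genes were not under -1 after deletion in organoids, where Jag2 was at -0.06, Nrarp at 0.01, Notch3 at -0.05 and Lfng at -0.41.

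Among 18 transcription factors of the secretory fates, none passed the adjusted p in either deletion comparison. Sox9, needed for Paneth cells, had Cy5 signals of 482 and 1054 in deleted organoids and 2004 and 3788 in wt organoids. Its log2 difference was -1.95 in organoids (SE 0.46, limma adjusted p 0.335), -1.23 in crypts (SE 0.23, limma adjusted p 0.163) and -2.83 without R-spondin. Bhlha15, which builds the secretory apparatus, had 837 and 1158 in deleted organoids and 2536 and 5655 in wt organoids. Its log2 difference was -1.94 (SE 0.41, limma adjusted p 0.273, and -0.34 by ratio), and without R-spondin it was at -1.74. In crypts the Bhlha15 replicates had opposite signs, at -0.57 and 0.56, with a mean of -0.01. Foxa2, a factor of goblet and enteroendocrine cells, was at -0.56 in crypts, -1.48 in organoids and -1.84 without R-spondin. Sox4 was at -0.86 in crypts, at -0.84 and -0.23 within the 2 slides of deleted and wt organoids, and at -2.36 without R-spondin. Klf4, a factor of goblet cell maturation, was at 0.81 in crypts (limma adjusted p 0.255), 0.63 in organoids (limma adjusted p 0.616) and 0.88 without R-spondin. Spdef, a goblet and Paneth factor downstream of Atoh1, was at 0.04 in crypts, 0.22 in organoids and 0.23 without R-spondin. Neurog3, which starts the enteroendocrine fate, had 239 and 279 in deleted organoids and 435 and 645 in wt organoids, a log2 difference of -1.04 (limma adjusted p 0.399; 0.18 by ratio), and was at 0.21 in crypts and -0.90 without R-spondin. Other factors at the upper end were Pax4 at 0.06 in crypts, Pax6 at 0.19 in organoids, and Pax6 at 0.77 without R-spondin.

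Markers of the fates that the switch separates differed in sign. Paneth cell markers were below 0 for 8 of 8 in crypts (median -0.75; over the 4 with a value on every array, -1.66 and -1.30 in replicate 1 against -0.15 and -0.02 in replicate 2), 8 of 9 in organoids after deletion (median -0.71) and 8 of 9 without R-spondin (median -0.38). Goblet cell markers were below 0 for 9 of 13 in crypts (median -0.30), and above 0 for 7 of 10 in deleted organoids (median 0.21) and for 9 of 13 without R-spondin (median 0.49). Enteroendocrine markers were above 0 for 8 of 13 in crypts, 8 of 14 in deleted organoids and 13 of 13 without R-spondin, with medians of 0.16, 0.26 and 0.68. Tuft cell markers were above 0 for 5 of 6 in crypts, below 0 for 6 of 6 in deleted organoids and above 0 for 6 of 6 without R-spondin. Enterocyte markers were above 0 for 12 of 12 in crypts (median 0.60), 12 of 12 in deleted organoids (median 0.39, but 6 of 11 by ratio) and 7 of 8 without R-spondin (median 0.79). Stem cell markers were below 0 for 9 of 10 in crypts (median -0.76), 8 of 9 in deleted organoids (median -1.95) and 9 of 10 without R-spondin (median -2.91). None of the markers of these lists passed the adjusted p of limma in the deletion comparisons. Among the stem cell markers, Axin2 passed the filter on dim probes only through wt samples in both deletion comparisons. In the R-spondin pair Axin2 and Tnfrsf19 passed it only through the culture with R-spondin.

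Other cell types were checked too. All 7 epithelial genes listed were above background in every group. Of 9 endothelial markers, 8, among them Cdh5 and Pecam1, were above background on all arrays of neither crypt group. In organoids 0 of 9 were above background in both deleted cultures, 1 in both wt cultures and 4 in each R-spondin culture. Of 12 immune cell markers, 3 were above background in both deleted and 3 in both wt organoid cultures, and 6 in each R-spondin culture. The T cell genes Cd3d and Cd8a and the leukocyte gene Ptprc were above background on all arrays of no organoid group. The listed markers Cd3e and Ccl5 were above background on all arrays of every organoid group, and Cd3g and Cd7 in both R-spondin cultures. Of 10 stromal and muscle markers, 6 were above background in both deleted and 6 in both wt organoid cultures. Without R-spondin 8 were, and with it 9. The part of such cells in the organoid values was not tested.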

How the data were processed

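RNA of 4 crypt arrays and 6 organoid arrays was compared. The deposited scanner files hold raw and processed spot signals in the unit intensity and a log10 ratio of red over green. Per the file headers they come from Agilent Feature Extraction 10.5.1.1, while the submitters' processing notes name 8.5.1.1. The matrix of the whole series, also deposited, repeats these log10 ratios, turned to deleted over wt for crypts.

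Intensities were corrected with normexp (offset 50) in limma 3.58.1 (R 4.3.3, data.table version 1.17.8) and normalized by loess within arrays, or by quantiles over Cy5 of the 6 organoid arrays. The R-spondin and crypt files gave mean pixel signals, the organoid deletion files only median ones. Spots marked as outliers were left out (2.48% to 6.94% per array), copies of a probe were averaged, and the brightest complete probe stood for a gene if all arrays of at least 1 group showed it well above background. No spot was saturated. Above background in Cy5 were 40.2% to 63.1% of gene spots, and the number of arrays limits precision. Symbols were updated through accession (28661 of 43379 gene spots), current symbol (5396) or older symbol (952), and 8370 kept the file's name. Crypt dye swaps were averaged to 2 replicates and tested against 0, and deleted organoids against wt organoids, with limma, two-sided, and Benjamini-Hochberg adjustment over all genes. No test was made for the R-spondin arrays, which shared a slide. Organoid cultures of the same number shared a slide, and their deviations from the group means correlated at 0.53 over 13311 genes. The fits were tested on simulated data. The genes, the lists, the use of Cy5 and the motifs were chosen with earlier results of these data known. All 10 genes are reported, with their other probes where above background; of the pathway and factor lists the 3 highest and 3 lowest genes per comparison, those past a threshold, and single others followed across comparisons, chosen after their values were seen; of marker lists, counts and medians. Some genes that this rule names are not reported here. Not on the array under these names were 4 of 14 Paneth and 1 of 8 tuft cell markers. The Apc experiment named in the series was not analysed here.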

Additional observations from a re-analysis of the deposited data

How the results depend on the processing

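The number of crypt genes called by limma, 6 as reported, was 789 with the processed signals, 334 with median centring, 0 with no filter on dim probes (which tests more genes), 37 with marked spots kept, 94 with the mean over probes and 419 with the series matrix. Without 1 replicate it was 3 to 601, and the high count was without replicate 1; the spread then comes from the organoid cultures, and the lone crypt replicate is assumed to vary like them. The organoid count, 5 as reported, was 130 with the processed signals, 10 with scaling to the 75th percentile, 1 with no filter, 0 by ratio and 411 with the slide as a replicate block; leaving out 1 culture gave 4 to 146. The count past 2-fold without R-spondin, 1873 as reported, was 3041 with the series matrix and 2908 with the processed signals.

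The median of the other pathway genes in crypts, -0.12, was 0.014 with median centring, -0.018 with no filter and -0.028 with marked spots kept, and -0.14 to -0.0015 without 1 replicate. In organoids, -0.02, it was 0.0054 with the mean over probes, 0.087 by ratio and 0.016 within slide 1, and -0.12 to 0.034 without 1 culture. Without R-spondin, 0.06, it was -0.0050 by Cy5, 0.10 with the series matrix and 0.18 with the processed signals. None of the 8 genes tested passed with the replicate block, where adjusted p-values were 0.148 to 0.925.

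In crypts Dll4 turned to 0.0042 and Hes6 to 0.17 with median centring, and without 1 replicate Hes6 was -0.50 to 0.15 and Gfi1 -0.050 to 0.57. In organoids the ratio gave 0.63 for Dll1, 0.23 for Gfi1, 0.36 for Hes1, 0.10 for Notch1 and 0.17 for Notch2. Hes5 was -0.010 with the processed signals and -0.016 within slide 2, and Notch1 was 0.034 within slide 2. Without 1 culture Notch1 was -0.22 to 0.11 and Dll4 -0.55 to 0.0054. Without R-spondin Dll1 was -0.037 by Cy5 and Atoh1 -0.024 in the series matrix. The causes of these shifts were not tested. The sign of a gene was kept in 72 of 76 values in crypts, 93 of 104 in organoids and 68 of 70 without R-spondin. These counts include values that a setting left unchanged. The setting with no filter and the replicate block repeated the value of every gene. The mean over probes repeated that of genes with a single passing probe. The counts therefore overstate how well the signs held.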
